A study of Mus musculus with 15 samples.

Results

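Prss34, Mcpt8, Cpa3, Ms4a2 and Fcer1a are genes of basophils and mast cells, and their levels were followed through 5 cell populations sorted from mouse bone marrow. The genes were chosen by symbol, and all 5 are among the 14801 genes of the deposited table. The populations were Neutrophil, ProNeut_Neutrophil, PreNeut_Neutrophil, CD115plusGMP (granulocyte-monocyte progenitors positive for CD115, the CSF1 receptor) and CMP (common myeloid progenitors), with 3 RNA sequencing libraries each and 15 in all. All came from the fresh marrow of healthy mice, with no treatment or altered gene named. The sources used here do not give strain, age, sort gates or the number of animals. Whether replicates are separate animals is likewise not stated, and p-values reflect library-to-library spread, which may be technical only. ProNeut_Neutrophil and PreNeut_Neutrophil are called ProNeut and PreNeut below.

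Basophils and mast cells are granule-bearing cells that arise from myeloid progenitors in the marrow. Both carry the high-affinity receptor for IgE, and antigen that cross-links this receptor makes them release stored granule proteins and newly made lipid mediators. Prss34 and Mcpt8 encode serine proteases of mouse basophil granules, and Cpa3 encodes carboxypeptidase A3, a granule protease of mast cells and basophils. Fcer1a encodes the IgE-binding alpha chain of the receptor, and Ms4a2 encodes the beta chain, which amplifies its signal. The transcription factor GATA2 is needed for both cell types in the mouse.

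The 5 genes lie on different chromosomes. In GRCm38 coordinates of the GENCODE M21 annotation, Prss34 (Entrez 328780) is on the plus strand of chromosome 17 at 25298394 to 25300165. The other 4 are on the minus strand, with Mcpt8 (17231) on chromosome 14 at 56082166 to 56085273 and Cpa3 (12873) on chromosome 3 at 20215620 to 20242181. Ms4a2 (14126) is on chromosome 19 at 11615523 to 11623719 and Fcer1a (14125) on chromosome 1 at 173221284 to 173227214. None of the 5 shares exon bases with another annotated gene on either strand.

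The promoters of the 4 genes that carried reads in every ProNeut and PreNeut library are shown because these genes differed in the same direction. Each runs from 250 bases before to 50 bases after the RefSeq start on GRCm38.p6, 5′ to 3′ on the gene's strand. Capitals mark GATA words on either strand. The word AGATAA was searched with its relatives that have T for the first base (TGATAA), G for the last (AGATAG) or both of these (TGATAG).
Prss34, chr17:25298144-25298443, plus strand: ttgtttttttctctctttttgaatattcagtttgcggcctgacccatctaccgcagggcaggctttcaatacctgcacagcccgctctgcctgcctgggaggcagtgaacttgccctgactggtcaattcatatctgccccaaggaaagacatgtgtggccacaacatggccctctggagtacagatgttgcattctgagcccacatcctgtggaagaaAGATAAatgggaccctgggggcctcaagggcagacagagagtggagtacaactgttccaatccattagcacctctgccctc
Mcpt8, chr14:56085148-56085447, minus strand: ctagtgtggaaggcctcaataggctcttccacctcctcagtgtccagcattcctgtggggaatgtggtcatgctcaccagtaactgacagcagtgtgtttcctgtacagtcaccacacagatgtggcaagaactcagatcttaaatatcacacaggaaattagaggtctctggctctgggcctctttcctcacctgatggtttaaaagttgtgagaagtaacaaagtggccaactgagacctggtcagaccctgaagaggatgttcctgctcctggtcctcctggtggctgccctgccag
Cpa3, chr3:20242132-20242431, minus strand: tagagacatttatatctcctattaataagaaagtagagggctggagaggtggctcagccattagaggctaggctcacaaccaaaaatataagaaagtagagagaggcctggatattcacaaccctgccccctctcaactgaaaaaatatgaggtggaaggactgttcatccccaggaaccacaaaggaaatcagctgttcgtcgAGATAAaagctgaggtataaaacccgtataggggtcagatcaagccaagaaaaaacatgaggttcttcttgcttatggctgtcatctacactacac
Ms4a2, chr19:11623670-11623969, minus strand: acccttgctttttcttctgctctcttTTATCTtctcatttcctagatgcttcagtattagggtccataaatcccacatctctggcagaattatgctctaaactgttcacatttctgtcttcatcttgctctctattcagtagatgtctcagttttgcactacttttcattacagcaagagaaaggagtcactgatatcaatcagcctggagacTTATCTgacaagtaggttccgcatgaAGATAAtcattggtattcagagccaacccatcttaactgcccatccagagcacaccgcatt

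A GATA word was present in 4 of the 5 promoters, against 29.8% of all 32851 promoters of the same length. The word nearest the start began 31 bases before it in Prss34, 46 in Cpa3, 11 in Ms4a2 and 92 in Fcer1a. Ms4a2 held 3 such words and Mcpt8 none. The RUNX word TGTGGT was found in 3 of 5 (Mcpt8 with 2 matches, Cpa3 and Fcer1a; 16.8% of all promoters). Of the E-box words CACGTG and CATGTG bound by MITF, only CATGTG was found, in Prss34 and Fcer1a (either word in 20.4% of all). The word GAGGAA of ETS factors was in Mcpt8 and Fcer1a (28.3%). The word TTGCGCAA of C/EBP factors was in none of the 5 (0.183% of all) and its looser form TTNNGNAA in Fcer1a alone (40.7%). All words were searched on both strands, words of different factors could overlap, and a match describes these letters only.

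The table gives log2 CPM, the log2 of reads relative to the size of each library, and whole reads could be recovered from them. By depth and strand the libraries form 2 sets, each made of whole groups. The 9 Neutrophil, CD115plusGMP and CMP libraries had 810794 to 1444403 reads over the genes of the table, and the 6 ProNeut and PreNeut libraries had 7493694 to 68171606, with PreNeut replicate 3 the deepest. ND6, the mitochondrial protein gene read from the strand opposite to the others, took 69.1% to 93.3% of mitochondrial protein gene reads in the 9 libraries and 0.154% to 0.230% in the 6. Reads on Tsix, transcribed antisense to Xist, numbered 9651 in the 9 libraries and 30 in the 6, where Xist had 535 and 43. Genes without a symbol took 55.6% to 69.5% of reads in the 9 libraries and 0.102% to 0.146% in the 6. The strand setting of the counting is not given, so reads and zeros of the 9 libraries may be those of the strand opposite to the genes and not of their mRNA. These values moved with the set, and their part in the low member values of the 9 libraries was not tested. Set and group cannot be told apart between ProNeut or PreNeut and the other 3 groups, so levels across the sets stand side by side without a test. The neutrophil marker list (15 of 15 genes present) summed to 99983 to 125010 CPM in ProNeut and 78768 to 100990 CPM in PreNeut libraries, against 26.2 to 30.3 CPM for the 5 basophil and mast cell genes in PreNeut.

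**Figure D1:**
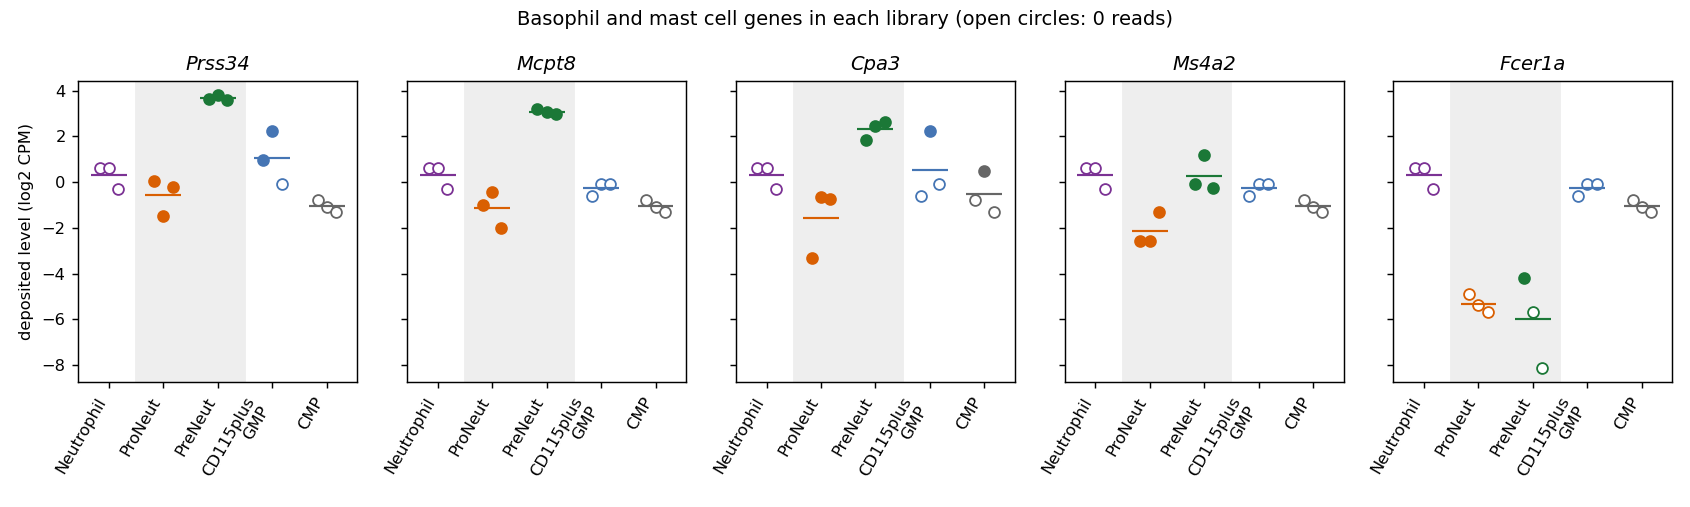
Deposited level (log2 CPM) of the 5 genes in each library, with 3 libraries per group and a line at the group mean; open circles are libraries with 0 reads, whose value is set by depth and scaling alone, and grey shading marks the 6 deeper libraries. Prss34, Mcpt8, Cpa3 and Ms4a2 lay higher in every PreNeut library than in every ProNeut library, and Fcer1a had 1 read in all. The share of all genes separated in this way was not counted.

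The deeper set of libraries showed a difference in most of these genes between ProNeut and PreNeut. The shallower set had too few reads on them for differences there to be ranked beside it. The proteases Prss34 and Mcpt8 and the carboxypeptidase Cpa3 were 14.6 to 18.9 times lower in ProNeut, and the receptor chain Ms4a2 was 5.39 times lower. Prss34 had 15, 7 and 22 reads in ProNeut replicates 1 to 3 and 341, 359 and 1712 reads in PreNeut replicates 1 to 3. Scaled to library size, that was 1.004, 0.334 and 0.851 CPM in ProNeut, against 12.6, 14.1 and 12.1 CPM in PreNeut. The groups did not overlap, and the PreNeut libraries lay close together. The mean log2 CPM was -0.54 ± 0.82 in ProNeut and 3.69 ± 0.12 in PreNeut (SD, n = 3 each). Prss34 fell by 4.24 ± 0.61 log2 units in ProNeut (SE; limma adjusted p = 0.0013; 18.9-fold lower, 95% interval of the log2 difference -5.54 to -2.93).

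Mcpt8 had 7, 15 and 6 reads in ProNeut and 246, 215 and 1105 in PreNeut. Its level was 0.468, 0.715 and 0.232 CPM in the ProNeut libraries and 9.08, 8.47 and 7.82 CPM in the PreNeut libraries, again without overlap. It fell by 4.22 ± 0.53 log2 units (SE, n = 3 each; limma adjusted p = 0.00041; 18.6-fold lower, 95% interval -5.35 to -3.09). The fall of Mcpt8 was called under all 16 other settings run, and that of Prss34 under 15 of 16. With quantile normalization Mcpt8 fell by 3.18 (adjusted p = 0.0013; 9.09-fold lower), while the Prss34 call was lost at -3.41 (adjusted p = 0.0598; 10.7-fold).

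Cpa3 varied more between libraries than these proteases. It had 1, 13 and 15 reads in ProNeut and 97, 137 and 870 in PreNeut, which was 0.0669, 0.620 and 0.580 CPM in ProNeut against 3.58, 5.40 and 6.16 CPM in PreNeut. ProNeut replicate 1 was the lowest library, and the groups did not overlap. Cpa3 fell by 3.87 ± 0.83 log2 units (SE, n = 3 each; limma adjusted p = 0.019; 14.6-fold lower, 95% interval -5.63 to -2.10). The adjusted p was 0.105 without ProNeut replicate 1 (difference -2.99), 0.0609 without PreNeut replicate 3 (-3.71) and 0.0505 without PreNeut replicate 2 (-3.80). The Cpa3 call also ended with quantile normalization (-2.58, adjusted p = 0.55; 5.97-fold) and with median centring (-3.82, adjusted p = 0.0616).

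Ms4a2 had few reads, 2, 3 and 10 in ProNeut and 25, 57 and 117 in PreNeut. Its level was 0.134, 0.143 and 0.387 CPM in ProNeut and 0.922, 2.25 and 0.828 CPM in PreNeut, where replicate 2 stood highest. The groups did not overlap, and Ms4a2 fell by 2.43 ± 0.61 log2 units (SE, n = 3 each; limma adjusted p = 0.047; 5.39-fold lower, 95% interval -3.71 to -1.14). This call was near its threshold: the adjusted p was 0.0615 without PreNeut replicate 1 (difference -2.61), 0.16 without PreNeut replicate 2 (-1.98), 0.182 without ProNeut replicate 1 (-2.22) and 0.191 without ProNeut replicate 2 (-2.21). It was also lost with quantile normalization (-1.71, adjusted p = 0.0973; 3.27-fold) and with median centring (-2.38, adjusted p = 0.259). With replicate number added to the fit as a block it was lost too (-2.43, limma adjusted p = 0.0703). The fit takes 1 spread per gene from all 15 libraries. Ms4a2 and Mcpt8 had 0 reads in the Neutrophil, CD115plusGMP and CMP libraries, where depth and scaling alone set the values. With only ProNeut and PreNeut in the fit, the 95% interval was -4.02 to -0.84 for Ms4a2 (SE 0.75, limma adjusted p = 0.029). It was -5.15 to -3.29 for Mcpt8 (SE 0.44). Fcer1a had 0 reads in every ProNeut library and 1 read in PreNeut, in replicate 1. At this depth 0 reads over the 3 ProNeut libraries allows a level of up to 0.0486 CPM (3 reads), counting error only, so no difference in Fcer1a was detectable.

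In all, 4 of the 5 genes were called lower in ProNeut, against 0.417% of all genes tested (59 of 14161) by limma (a call needs an adjusted p below 0.05 and a difference of 1 log2 unit or more; 2.26% were called in either direction). The count of members called was 1 with quantile normalization, 2 with median centring and 3 with replicate number as a block. The share of all genes whose ProNeut and PreNeut libraries did not overlap was not counted. With 3 libraries against 3, an exact rank test of such separation reaches no p below 0.1. The genes tested had a log2 CPM above 0 in at least 3 libraries. Fcer1a did not pass this filter. Mcpt8 reached it with reads in the 3 PreNeut libraries alone and Ms4a2 with reads in 1, the rest of its values above 0 being Neutrophil libraries with 0 reads. The count among genes that passed is therefore no support by itself. With no filter, 4 of 5 were again called lower, against 0.439% of 14801 genes. Among all tested genes Prss34 had the 8th, Mcpt8 the 9th and Cpa3 the 13th largest decrease, and Ms4a2 the 91st. The ProNeut libraries had 261 genes called higher beside the 59 lower. The split was 79 and 47 with quantile normalization, 515 and 388 with only these 2 groups in the fit, and 775 and 604 with voom. Genes without reads in either group differed by a median of 1.19 in the positive direction from depth and scaling alone. The 4 tested members had reads in every ProNeut and PreNeut library, so this value does not describe them. The part of depth and scaling in their differences was not tested. In bulk libraries, fewer cells of a type and less RNA per cell cannot be told apart.

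**Figure D2:**
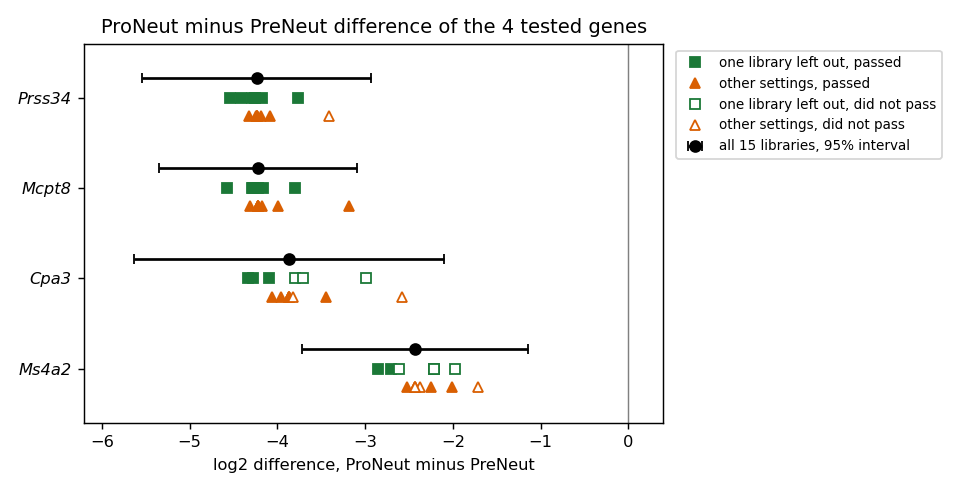
Log2 difference (ProNeut minus PreNeut) of the 4 tested genes, with its 95% interval from the fit to all 15 libraries (black), with 1 library left out (squares) and under other settings (triangles); open symbols have an adjusted p of 0.05 or more. Every value is below 0, and Cpa3 and Ms4a2 hold most of the open symbols.

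The spread within PreNeut differed between the genes. The coefficient of variation over the 3 PreNeut libraries was 8.17% for Prss34 and 7.4% for Mcpt8, against 26.3% for Cpa3 and 59.5% for Ms4a2. Set against counting error, chi-square per degree of freedom was 3.54, 2.47, 13.5 and 21.2 in the same order. In ProNeut, where 44, 28 and 29 reads were counted in all, it was 3.35 for Prss34, 2.99 for Mcpt8 and 3.42 for Cpa3. Every pair of replicate libraries also differed by more than counting error over all genes.

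Per kilobase of exon, the order of levels in PreNeut was Prss34 (3.40 ± 0.12 log2 CPM per kilobase), Mcpt8 (3.08 ± 0.11), Cpa3 (1.70 ± 0.41) and Ms4a2 (-1.23 ± 0.79; SD, n = 3 each). In ProNeut it was the same, at -0.89 ± 0.86, -1.23 ± 0.82, -2.39 ± 1.83 and -3.85 ± 0.86. Neighbours in the PreNeut order differed by more than the larger of their SDs, and no neighbours in ProNeut did. Within the PreNeut libraries Prss34 lay above 62.8% to 66.0% of all genes of the table, Mcpt8 above 56.0% to 58.5%, and Ms4a2 above 32.9% to 41.8%.

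The make-up of the reads on these genes was compared as shares. Prss34 took 37.9% of the 116 reads on the 5 genes in ProNeut (exact 95% binomial interval 29.1% to 47.4%) and 45.7% of the 5282 reads in PreNeut (44.3% to 47.0%). Mcpt8 took 24.1% (16.7% to 32.96%) in ProNeut and 29.6% (28.4% to 30.9%) in PreNeut. The share of Cpa3 was 25% (17.4% to 33.9%) in ProNeut and 20.9% (19.8% to 22.02%) in PreNeut. For each of Prss34, Mcpt8 and Cpa3 the intervals of the groups overlapped. Ms4a2 took 12.9% (7.42% to 20.4%) in ProNeut and 3.77% (3.27% to 4.32%) in PreNeut. By library the Ms4a2 share was 8%, 7.89% and 18.9% in ProNeut and 3.52%, 7.42% and 3.08% in PreNeut. These intervals pool the reads of 3 libraries and cover counting error only, not the spread between libraries.

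**Figure D3:**
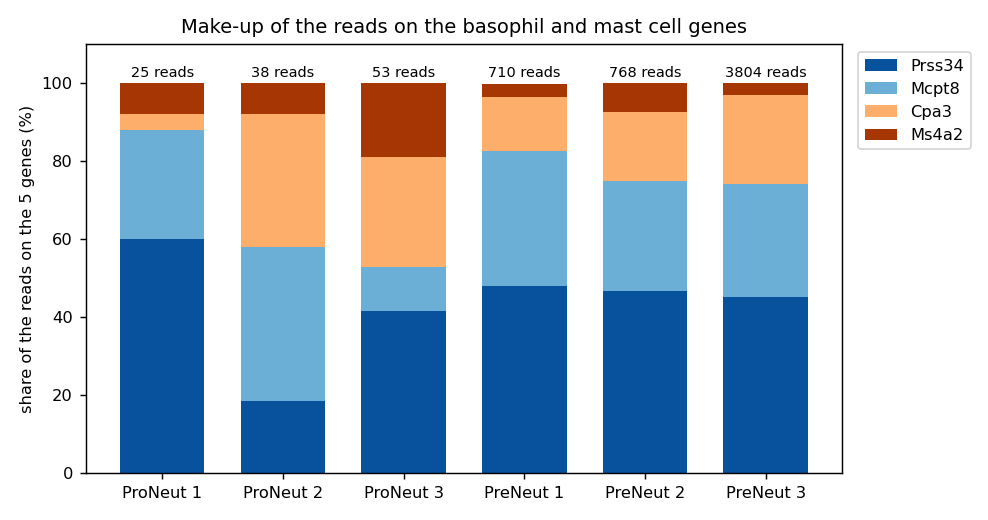
Share (%) of the reads on the 5 genes that fell on Prss34, Mcpt8, Cpa3 and Ms4a2 in each ProNeut and PreNeut library, with the number of reads above each bar; the 1 Fcer1a read of PreNeut replicate 1 is not drawn. ProNeut bars rest on 25 to 53 reads and vary more than PreNeut bars, which rest on 710 to 3804.

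Of the IgE receptor chains the beta chain was called lower in ProNeut and the gamma chain was not called. Fcer1g, the gamma chain that other Fc receptors also use, had 344, 300 and 388 CPM in ProNeut and 237, 210 and 240 CPM in PreNeut. All ProNeut libraries were above all PreNeut libraries for Fcer1g, but the difference of 0.58 ± 0.73 log2 units did not pass (SE, n = 3 each; limma adjusted p = 0.9998; 95% interval -0.97 to 2.14). Ms4a2 has its values above, and Fcer1a had 1 read in the 6 libraries. Per kilobase, Fcer1g was at 8.61 ± 0.19 log2 CPM in ProNeut and 8.03 ± 0.11 in PreNeut (SD, n = 3 each).

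**Figure D4:**
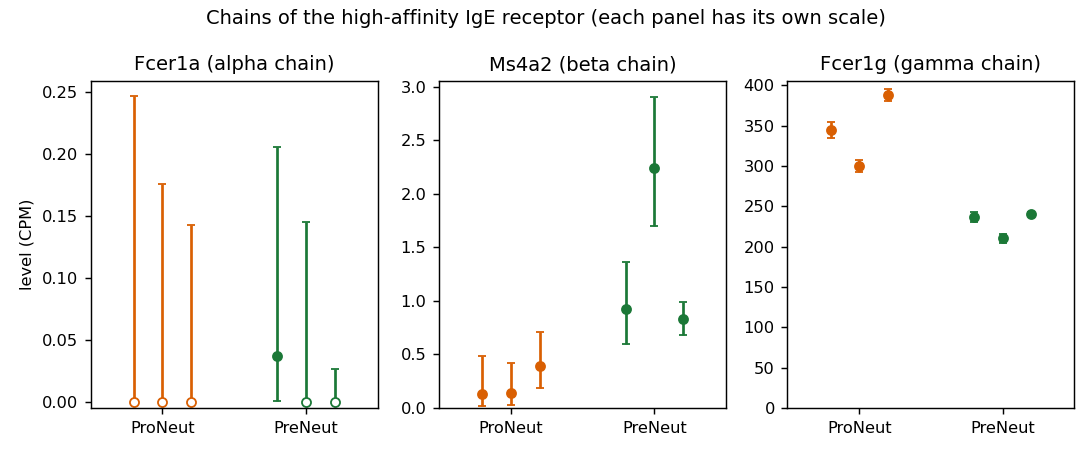
Level (CPM) of the alpha, beta and gamma chain genes of the IgE receptor in each ProNeut and PreNeut library, with exact 95% Poisson intervals for counting error; open circles are 0 reads, and each panel has its own scale. The alpha chain is near 0 in both groups, the beta chain lower in ProNeut, and the gamma chain at 210 to 388 CPM.

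Genes downstream of the IgE receptor showed no calls. Of 20 listed IgE receptor signalling genes 19 were tested, and none was called in either direction by limma or had an unadjusted p under 0.05. Their median difference was 0.16, against 0.07 over all genes tested. The largest differences were those of Plcg1, a phospholipase C gene (-0.90 ± 0.63, SE), the adaptor gene Grap2 (0.83 ± 0.93), Fcer1g and the calcium channel gene Orai1 (0.47 ± 0.91). Exons of Plcg1 overlap annotated genes on the opposite strand. Many of the kinases and adaptors on the list also signal in neutrophils.

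Of 14 genes of mast cell proteases and of the tryptase and chymase loci, 2 were in the table. Ctsg, the cathepsin G gene of neutrophil granules, lies in the same region of chromosome 14 as Mcpt8, at 56099881 to 56102574. It had 3.61, 11.3 and 0.929 CPM in ProNeut and 39.9, 38.9 and 35.3 CPM in PreNeut, and fell by 3.48 ± 0.85 log2 units (SE, n = 3 each; limma adjusted p = 0.042). Leaving out any 1 library but ProNeut replicate 2 ended the call of Ctsg, at adjusted p of 0.0841, 0.0855 and 0.0996 without PreNeut replicates 1, 2 and 3, and of 0.118 and 0.187 without ProNeut replicates 1 and 3 (difference -2.56 without ProNeut replicate 3). The other gene, Tpsg1, had 0 reads in ProNeut and PreNeut.

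Of 21 mediator, storage and cytokine genes, 16 were tested, 1 was called lower and 1 higher (median difference 0.25, against 0.07 over all genes; 0.417% of all genes were called lower and 1.84% higher). Srgn, which encodes the granule proteoglycan serglycin of mast cells and neutrophils, had 12.98, 16.3 and 18.1 CPM in ProNeut and 71.2, 59.1 and 59.7 CPM in PreNeut. It fell by 2.01 ± 0.33 log2 units (SE, n = 3 each; limma adjusted p = 0.0042). Ptgs2, the inducible cyclooxygenase gene, had 4, 8 and 3 reads in ProNeut and 0 reads in PreNeut, at least 15.7-fold higher from a floor of 3 reads over the group (limma adjusted p = 0.0074). Slc18a2, a vesicular amine transporter gene, had 0, 10 and 7 reads in ProNeut and 10, 9 and 144 in PreNeut, and its difference of -1.64 ± 0.76 did not pass (adjusted p = 0.41). The chemokine gene Ccl4 had 5 reads in ProNeut and 1 in PreNeut and did not pass.

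Regulators and surface proteins of the lineage gave no call among 17 tested of 24 listed (limma; 1 at an unadjusted p under 0.05), with a median difference of 0.10. Gata2 had 0.602, 0.572 and 0.464 CPM in ProNeut and 1.14, 1.10 and 0.793 CPM in PreNeut. The libraries did not overlap, but the difference of -0.83 ± 0.53 did not pass (SE, n = 3 each; limma adjusted p = 0.67). Gata1, a factor of erythroid, megakaryocyte, mast cell and eosinophil development, had 33, 15 and 50 reads in ProNeut and 8, 5 and 0 in PreNeut, and its difference of 4.57 ± 1.18 missed the threshold (adjusted p = 0.054). The size of the Gata1 difference rests on the 0 reads in PreNeut replicate 3, the deepest library, without which it was 2.505 (adjusted p = 0.0518). Gata1 passed without PreNeut replicate 1 (0.0129) or replicate 2 (0.0282) and missed the threshold without any 1 ProNeut library (0.0844 to 0.189). Il1rl1, the receptor for interleukin 33, was at 1.06 ± 0.69 (adjusted p = 0.68) and Cebpa at -0.83 ± 0.56 (adjusted p = 0.71).

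**Figure D5:**
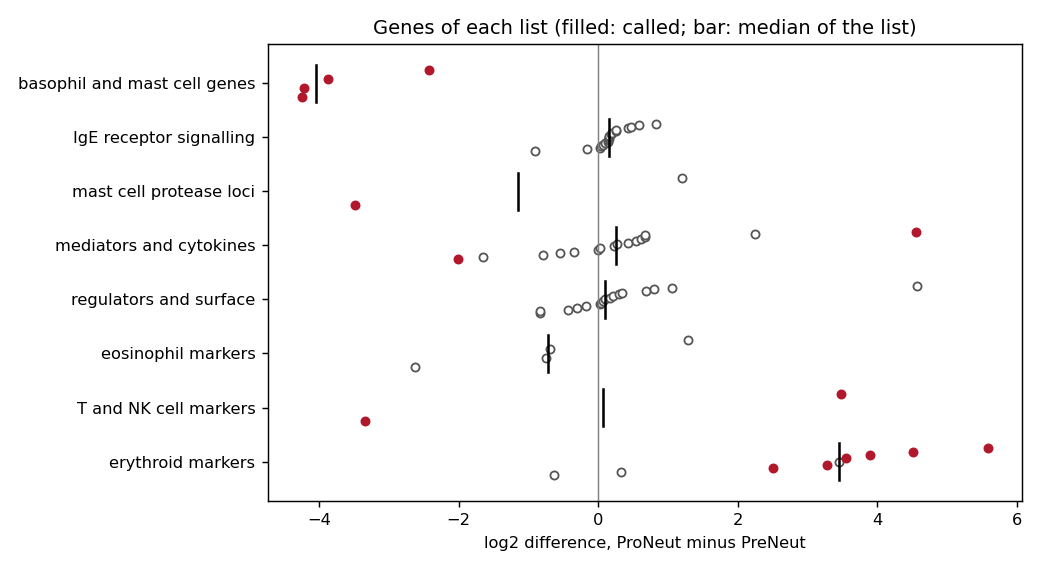
Log2 difference (ProNeut minus PreNeut) of each tested gene in the basophil and mast cell genes, 4 related lists and 3 marker lists; filled points were called and the bar is the list's median. The basophil and mast cell genes lie between -4.24 and -2.43, the medians of IgE receptor signalling, mediators and regulators lie between 0.10 and 0.25, and that of the 2 protease locus genes is -1.14.

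Markers of other cell types also differed between these groups, and their part in the member differences was not tested. Of 9 eosinophil markers 8 were in the table. Their sum was 50.5 to 59.5 CPM in ProNeut and 25.6 to 30.7 CPM in PreNeut and came mainly from the ribonuclease gene Ear2, with 47.0, 47.1 and 54.4 CPM in ProNeut and 24.0, 18.6 and 18.6 CPM in PreNeut. Of the 4 eosinophil markers tested none was called (limma; 1 at an unadjusted p under 0.05). The eosinophil peroxidase gene Epx had 0, 2 and 3 reads in ProNeut and 9, 12 and 103 in PreNeut (-2.62 ± 0.67, SE, n = 3 each; adjusted p = 0.052). Prg3, an eosinophil granule protein gene, had 0 reads in ProNeut, and 76 of its 79 PreNeut reads lay in replicate 3, where Prg2, the major basic protein gene, had 0.

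The sum of the 9 erythroid markers in the table was 80.2 to 91.2 CPM in ProNeut and 48.3 to 69.5 CPM in PreNeut. Of these 9, 6 were called higher (1.84% of all genes were) and none lower (0.417%), with a median difference of 3.45. The 3 T and NK cell markers in the table summed to 3.21 to 5.24 CPM in ProNeut and 21.6 to 29.3 CPM in PreNeut. Nkg7, a granule membrane protein gene of killer cells, made up most of that sum and fell by 3.34 ± 0.71 log2 units (SE, n = 3 each; limma adjusted p = 0.019). Nkg7 missed the threshold without PreNeut replicate 1 (adjusted p = 0.0533), ProNeut replicate 2 (0.0533) or ProNeut replicate 3 (0.0941). Cd3d was called higher and Cd3e was not tested. No marker of these 3 lists was at 0 in every PreNeut library, and Prg3 alone was at 0 in every ProNeut library. Nkg7, Cd3d, Epx, Ear2, Prg2 and Prg3 were named after their values were seen. None of the 10 monocyte and macrophage, 6 megakaryocyte, 8 stem cell and 3 B cell markers tested was called by limma, and 1, 0, 3 and 0 of them had an unadjusted p under 0.05.

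Of 15 neutrophil markers, 3 were called higher in ProNeut (1.84% of all genes were), 4 lower (0.417%) and 8 neither way, with a median difference of 0.38. Those called lower were Elane (-5.00 ± 0.62), Mpo (-4.46 ± 0.84), Prtn3 (-4.30 ± 0.67) and Ctsg (log2 difference ± SE, n = 3 each; limma adjusted p of 0.00038 to 0.042). Elane encodes neutrophil elastase, Mpo myeloperoxidase and Prtn3 proteinase 3, all stored in primary granules. Those called higher were Mmp8, Mmp9 and Retnlg. The part of these genes in the lower levels of Prss34, Mcpt8, Cpa3 and Ms4a2 was not tested. These neutrophil genes were named after their values were seen.

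Genes whose levels followed the members most closely were sought over the 6 ProNeut and PreNeut libraries, by Pearson correlation with the mean of the 4 tested members, each scaled to unit variance. Of 8636 eligible genes the closest were Fam98b, B4galt6, Slc38a1, Pold3, Fbf1, Idh3a, Dock1 and Slc43a3, with r from 0.995 to 0.998. Their differences ran from -0.33 for Fam98b to -1.38 for Idh3a, and none was called (limma adjusted p of 0.127 to 0.9998). An r above 0.9 was reached by 1017 eligible genes and an r below -0.9 by 862. The 6 points fall into 2 groups, and all genes of a library share its depth and scaling. The 4 members themselves had an r of 0.940 to 0.962 with their mean, which holds each of them.

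Few reads lay on these genes in the 9 shallower libraries. Since these libraries may count the opposite strand, their values are not firm measures of the mRNA. All 5 genes had 0 reads in every Neutrophil library. In CD115plusGMP, Prss34 had 1, 2 and 0 reads and Cpa3 0, 2 and 0, and the other 3 genes had none. In CMP, Cpa3 had 0, 1 and 0 reads and the other 4 had none. A count of 0 over the 3 libraries of a group allows a level of up to 2.35 CPM in Neutrophil, 1.64 CPM in CD115plusGMP and 0.948 CPM in CMP. The ProNeut levels of 0.0669 to 1.004 CPM would mostly lie under these limits, and the PreNeut levels of Prss34, Mcpt8 and Cpa3 above them. This holds on the deposited scaling and for the strand these values count, and only where a group had 0 reads. In CD115plusGMP replicate 2 the 2 reads each of Prss34 and Cpa3 were 3.76 CPM (exact 95% Poisson interval 0.456 to 13.6). PreNeut libraries had 12.1 to 14.1 CPM of Prss34 and 3.58 to 6.16 CPM of Cpa3, so the Cpa3 values overlapped.

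The comparisons among the shallower libraries asked how these genes differ between neutrophils and the 2 progenitor groups. In CD115plusGMP against CMP, 1 of the 4 tested genes was called, against 12.6% of all genes in either direction and 8.08% called higher. It was Prss34, with 3 reads in CD115plusGMP and 0 in CMP (limma adjusted p = 0.032), and both groups are at or under the floor of 3 reads. The call was lost without any 1 library but CD115plusGMP replicate 3. In Neutrophil against CMP, Mcpt8 alone was called (limma adjusted p = 0.048; 43.9% of all genes were called in either direction and 26.8% higher), although it had 0 reads in both groups. Of the 884 tested genes with 0 reads in these groups 228 were called, from depth and scaling alone, so this is no measurement of Mcpt8. The call was absent without any 1 library but Neutrophil replicate 3, without which 3 members were called. In Neutrophil against CD115plusGMP none of the 4 was called by limma or had an unadjusted p under 0.05, against 33.4% of all genes called in either direction and 20.2% higher. With plain library totals Prss34 was called lower in Neutrophil, which had 0 reads of it against 3 in CD115plusGMP.

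Reads of 3 lineage regulators were present in CMP and absent in CD115plusGMP; these were singled out after their values were seen, and the doubt about the strand counted holds for their reads, zeros and folds too. Gata1 had 0 reads in every CD115plusGMP library and 15, 22 and 17 in CMP, at least 10.4-fold lower in CD115plusGMP. Il1rl1 had 0 reads in CD115plusGMP and 13, 11 and 13 in CMP, at least 7.11-fold lower. Gata2 had 0 reads in CD115plusGMP and 2, 7 and 3 in CMP, at least 2.31-fold lower. All 3 were called lower by limma (adjusted p = 0.02 for Gata1, 0.0011 for Il1rl1 and 0.011 for Gata2; 4.56% of all genes were called lower). Gata1 missed the threshold without any 1 library but CD115plusGMP replicate 3 (adjusted p of 0.0504 to 0.0688 for the others), and Gata2 did so without CMP replicate 2 (0.0594). Of the 17 tested regulators and surface genes 5 were called higher in CD115plusGMP (8.08% of all genes were), among them Cebpa and Il3ra, the interleukin 3 receptor alpha chain gene. Erythroid markers summed to 11.4 to 24.7 CPM in CD115plusGMP and 537 to 698 CPM in CMP, and their part in these differences was not tested.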

How the data were processed

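RNA from sorted mouse marrow cells was sequenced after library preparation with a NuGEN mRNA kit (Universal Plus), per the labels. The authors deposited 1 table of log2 CPM values; FastQC 0.11.7, featureCounts 1.22.2 and edgeR 1.30.5 with GRCm38 (mm10) are named in the submitters' processing notes, while the sources used here name no aligner, strand setting or annotation. Every deposited log2 value corresponds to a whole number of reads plus 0.5, divided by a library constant (100% of values within 0.001 reads), which gave the reads and library sizes used here. The recovered totals cover the table's genes only. These sizes were 0.254 to 0.908 times the recovered totals in the Neutrophil, CD115plusGMP and CMP libraries and 1.93 to 2.24 times in the ProNeut and PreNeut libraries, which lifts CPM in the first 3 groups and lowers it in the last 2.

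Genes were kept where 3 or more of 15 libraries exceeded 0 log2 CPM, and group means were fitted with limma 3.58.1 in R 4.3.3 (eBayes with trend, all 15 libraries together). Tests were 2-sided, with Benjamini-Hochberg adjustment over all genes tested. Calls need an adjusted p below 0.05 and a difference of 1 log2 unit or more, and a difference is always the group named first minus the other. Counts were planned only as an alternative, through limma's voom. Replicate pairs were compared by chi-square per degree of freedom (2.10 to 24.4) and none was a repeat. The fit was tested on simulated data. There it missed most changes of 1 log2 unit, the smallest size that can be called, and many of 2 log2 units. A gene that was not called may therefore still differ. Intervals and floors of 3 reads cover counting error only.

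The members, the 4 lists, the markers and the motifs were chosen with earlier results of these data known. Named beside the members are up to 4 genes per list with the largest ProNeut difference, called ones first, and the 8 genes most like the members with a mean log2 CPM of at least 1. Alternatives varied the scaling, the count added, the filter, the test, the samples in the fit, the replicate block and each library left out.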

Additional observations from a re-analysis of the deposited data

How the results depend on the processing

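Differences of Prss34, Mcpt8, Cpa3 and Ms4a2 were below 0 under each setting run (16 for each gene, and 15 for Ms4a2, which the stricter filter removed). Quantile normalization gave -3.41 for Prss34 (adjusted p = 0.0598), -2.58 for Cpa3 (0.55) and -1.71 for Ms4a2 (0.0973), so that 1 member was called. Median centring gave -3.82 for Cpa3 (0.0616) and -2.38 for Ms4a2 (0.259), so that 2 were called. Leaving out 1 library gave -4.33 to -2.99 for Cpa3, -2.86 to -1.98 for Ms4a2 and 2 to 4 members called. The count of all genes called was 320, and 903 with only these groups in the fit, 126 with quantile normalization, 186 with median centring, 607 with 2 reads added, 1379 with voom and 110 with a log2 CPM above 1 required in at least 3 of the 6 libraries. It was 195 to 405 with 1 library left out. The cause was not tested.

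In CD115plusGMP minus CMP, the 1 member called became 0 with median centring, plain totals or voom, and 0 to 1 with 1 library left out; all genes called were 2689 with quantile normalization, against 1790. In Neutrophil minus CMP it became 3 with only these groups in the fit, with median centring or with 2 reads added, 2 without the trend or with quantile normalization, 0 with plain totals, voom or the replicate block, and 0 to 3 with 1 library left out. In Neutrophil minus CD115plusGMP 1 member was called with plain totals, against 0. Members had too few reads there for the stricter filter, and no fitted differences of single members are given. These counts rest on 0 to 3 reads a gene, and the parts of depth and of the strand counted were not tested.

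Whether same-numbered libraries were paired was not settled by these values. Same-numbered ProNeut and PreNeut libraries had correlations of deviations of 0.0827, 0.0544 and 0.145. ProNeut replicates 2 and 3 matched their own number best, while ProNeut replicate 1 matched PreNeut replicate 2 best. With the replicate block 3 members were called, Ms4a2 being at -2.43 with an adjusted p of 0.0703, and 285 genes in all.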
